A study of Mus musculus with 4 samples.

Results

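Of the 20540 chromatin regions mapped in 4 macrophage libraries, 3916 had a peak in the wild-type untreated library and in none of the other 3. They were chosen by merging all peaks that overlapped by 1 bp or more and keeping the merged regions made of wild-type untreated peaks alone. Each of the 3916 regions was 1 peak, so they were 22.6% of the 17339 peaks of that library. This share follows from the selection and is a description, as are the scores and widths of the regions.

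Bone marrow of C57BL/6 mice was cultured for 5 days with 10% M-CSF, the growth factor that drives macrophage differentiation. Donor mice were wild-type (WT) or Slc6a8-/y (KO), the latter without the creatine transporter that this X-linked gene encodes. Each genotype gave 1 library without treatment and 1 after 6 h with 10 ng/mL IL-4, which drives alternative activation, from 50000 cells per library. The question behind the design was what loss of creatine uptake does to open chromatin during polarization. How many animals stood behind a library was not stated in the sources used here. Every statement therefore compares 4 single libraries, with no replicate error, and parentheses give 95% Clopper-Pearson (exact) limits, which cover counting error alone.

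ATAC-seq reads open chromatin through the transposase Tn5, which inserts sequencing adapters where DNA is not wrapped in nucleosomes. Promoters of active genes are open in most cell types, whereas enhancers far from genes are open in a more cell-specific way. In macrophages many enhancers are bound by the lineage factor PU.1 together with C/EBP, AP-1 or IRF proteins. A peak caller reports a region only where its signal passes a threshold, so a region missing from a list can still hold signal below it.

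The libraries differed in list length: WT untreated had 17339 peaks and KO untreated 13714, while KO IL-4 had 10443 and WT IL-4 9930. From WT untreated through WT IL-4 and KO untreated to KO IL-4, the lowest scores were 50.01, 50.00, 50.01 and 50.01. Read depth is unknown, and its part in the absence of a peak from the shorter lists was not tested. No library had a peak at Slc6a8 or within 10 kb of it, so the targeted gene gave no check of the labels. Of the 30 genes of a macrophage identity list, 27 had a WT untreated peak within 10 kb of the gene span. Over all protein-coding genes 56.0% did. Of 108 entries in 8 marker lists of other cell types 37 did, from 0 of 10 for mast cells and basophils to 9 of 13 for dendritic cells. B cell markers had 8 of 13, T cell 7 of 15, and erythroid and megakaryocyte 5 of 13. Neutrophil markers had 4 of 15, fibroblast and stromal 2 of 14, and neuron and hepatocyte 2 of 15.

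Because 6 of the 20 highest-scoring regions lay at gene edges, among them that of Cebpb, promoters are shown first. No genome sequence was used here, so sequence could be read only for RefSeq promoter windows (GRCm38.p6, the coordinates of mm10). The 5 promoters below are examples chosen after values were seen. They belong to the lineage factors Cebpb and Irf8, the lipid-sensing nuclear receptor Ppard, the inflammasome sensor Nlrc4 and the small Maf protein Mafg. Each is the 250 bases before the annotated start site, 5′ to 3′ on the gene's strand. Capitals mark any match, on either strand, to the 15 motifs searched.
Cebpb: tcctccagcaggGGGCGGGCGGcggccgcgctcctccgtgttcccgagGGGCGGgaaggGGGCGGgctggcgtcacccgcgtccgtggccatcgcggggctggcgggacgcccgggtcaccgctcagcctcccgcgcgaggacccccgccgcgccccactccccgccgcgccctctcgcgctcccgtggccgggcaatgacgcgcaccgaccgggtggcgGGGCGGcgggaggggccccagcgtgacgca
Irf8: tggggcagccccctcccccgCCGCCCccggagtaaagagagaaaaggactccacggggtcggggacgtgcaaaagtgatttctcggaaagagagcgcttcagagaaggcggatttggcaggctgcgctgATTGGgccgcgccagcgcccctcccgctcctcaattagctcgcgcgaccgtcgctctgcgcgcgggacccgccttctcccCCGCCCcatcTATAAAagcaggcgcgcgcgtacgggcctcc
Ppard: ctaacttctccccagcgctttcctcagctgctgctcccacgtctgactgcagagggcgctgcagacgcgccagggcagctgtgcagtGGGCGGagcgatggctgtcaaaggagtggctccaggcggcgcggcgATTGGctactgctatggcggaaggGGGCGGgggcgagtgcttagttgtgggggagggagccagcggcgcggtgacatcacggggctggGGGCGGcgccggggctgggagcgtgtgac
Nlrc4: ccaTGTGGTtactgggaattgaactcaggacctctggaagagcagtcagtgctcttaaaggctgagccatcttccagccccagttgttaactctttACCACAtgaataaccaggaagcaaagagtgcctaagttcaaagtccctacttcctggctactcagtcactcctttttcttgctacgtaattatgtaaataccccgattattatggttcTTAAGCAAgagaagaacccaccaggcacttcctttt
Mafg: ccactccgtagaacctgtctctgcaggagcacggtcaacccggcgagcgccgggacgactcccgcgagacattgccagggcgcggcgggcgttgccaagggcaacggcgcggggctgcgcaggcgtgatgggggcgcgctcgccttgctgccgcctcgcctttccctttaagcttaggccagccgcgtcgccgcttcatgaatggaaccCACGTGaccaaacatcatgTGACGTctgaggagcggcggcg
They lie at chr2:167688665-167688914 (+), chr8:120736108-120736357 (+), chr17:28232504-28232753 (+), chr17:74459109-74459358 (-) and chr11:120633548-120633797 (-). The Cebpb promoter held 5 GC boxes (GGGCGG) and 50 CpG in its 300-base window, and that of Irf8 held GC boxes, an inverted CCAAT box and a TATA box (TATAAA). The Ppard promoter held GC boxes and an inverted CCAAT box. The Nlrc4 window had only 2 CpG, with a C/EBP-type match (TTGCNNAA) and RUNX-type matches (TGTGGT). The Mafg promoter held an E-box (CACGTG) and a CRE core (TGACGT). A match is a description and not a bound site.

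The score, the authors' value for each peak and comparable only within a list, was low for most of these regions. Their median score was 64.9 (range 50.01 to 181), against 124 (50.01 to 3100) for the 13423 WT untreated peaks with a counterpart in another library. Quartiles were taken over the whole WT untreated list. The lowest quartile (50.01 to 68.73) held 2321 of the regions, 53.5% of its peaks. The second (68.74 to 101.1) held 1306, or 30.1%, and the third (101.13 to 168.55) held 284, or 6.55%. The highest held 5, or 0.115%. Thus 59.3% (57.7 to 60.8) of the regions came from the lowest quartile, and 1412 of them scored below 60.

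**Figure D1:**
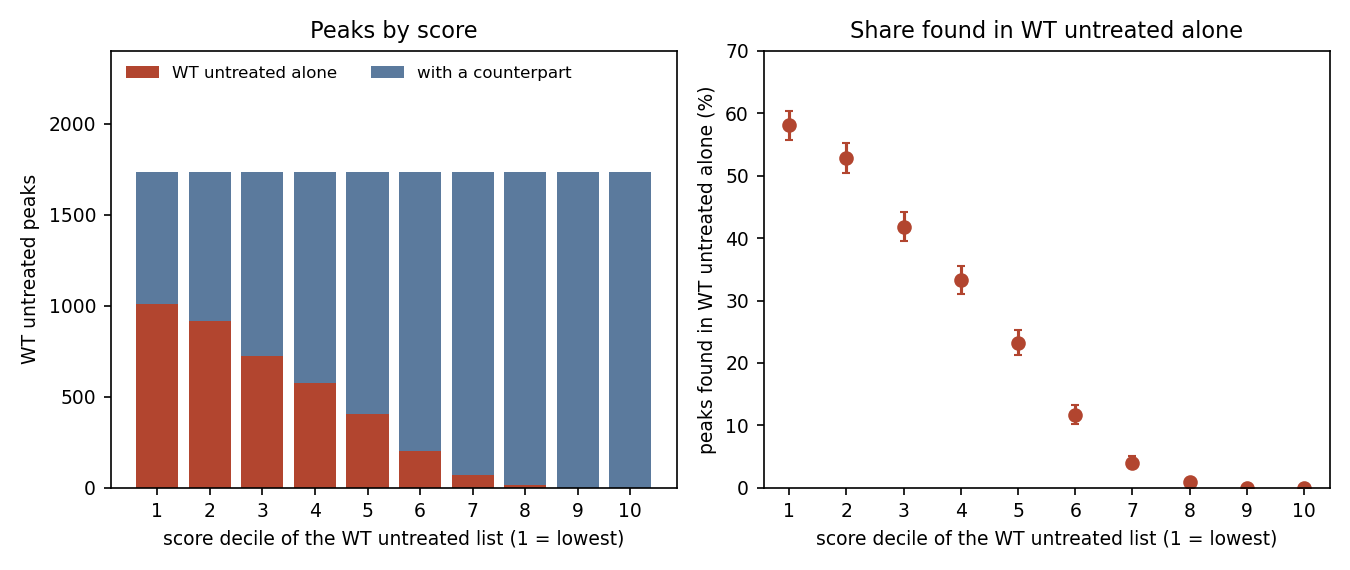
WT untreated peaks in 10 score classes of equal size (x axis); left, the number of peaks found in WT untreated alone or with a counterpart in another library; right, the percentage found alone, with exact 95% intervals for counting error. The share falls from 58.0% in the lowest class to 0.923% in the eighth, and the 2 highest classes hold 0 of 1734 peaks each, with an exact upper limit of 0.213% (3 counts would be 0.173%).

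The regions were also narrow. Their median width was 330 bp (quartiles 292 to 396), against 479 bp (381 to 613) for the other WT untreated peaks, and together they covered 1.38 of 8.39 Mb. Within the lowest score quartile the medians were closer, 310 bp and 333 bp, and in the second 365 bp and 403 bp. The 5 widest regions lay inside Sfi1 (2816 bp), inside A530032D15Rik (1644 bp), 112747 bp from Vmn1r238 (1346 bp), within 10 kb of Gm15319 (1086 bp) and 96264 bp from Gm826 (988 bp). How reads from repeated sequence were placed was not stated in the sources at hand, so such wide regions near gene families are uncertain.

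The distance from a region to peaks of the other libraries varied widely, and no reference distance was taken. The median distance to the nearest one was 16179 bp (quartiles 5773 to 44442), and 320 of 3916, or 8.17% (7.33 to 9.07), had one within 1000 bp. Within 10 kb, 1445 regions, or 36.9% (35.4 to 38.4), had one. At the boundary of the rule, a region at the Slc16a7 edge (score 53.5) touched a KO IL-4 peak of 157 without overlap. One inside Klf13 (169) ended 6 bp from a KO untreated peak of 61.2. Just outside the rule, a WT untreated peak at Apba1 (50.7) shared 1 bp with a WT IL-4 peak of 57.3, and one at Erlec1 (83.0) shared 5 bp with a KO untreated peak of 117. Only 54 of the peaks counted as shared overlapped by 100 bp or less at best. The distance to the nearest WT untreated peak with a counterpart had a median of 22725 bp.

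**Figure D2:**
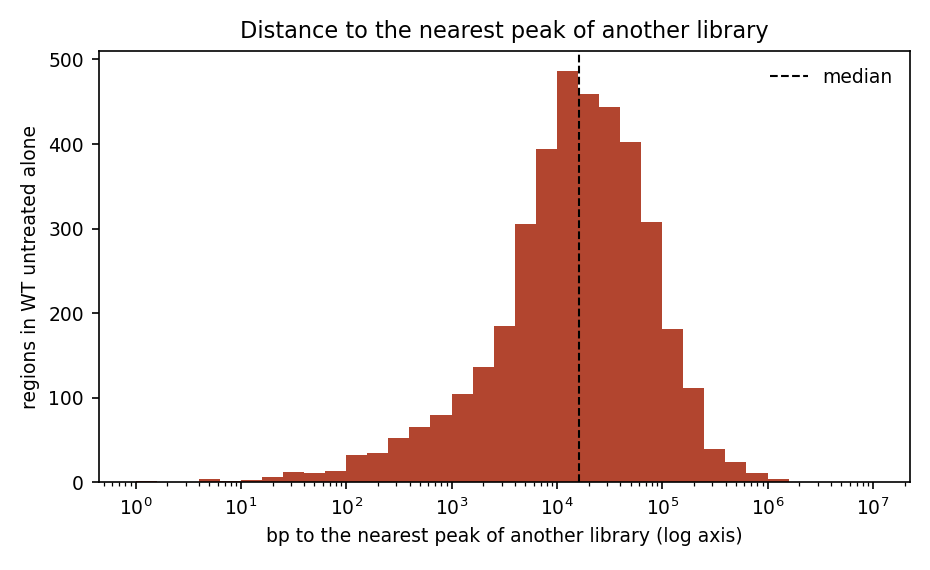
Number of regions found in WT untreated alone (y axis) by distance in bp to the nearest peak of any other library (x axis, log scale; distances of 0 are drawn at 1). The dashed line is the median of 16179 bp, and few regions lie within 100 bp of another library's peak (55 of 3916).

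Regions found in WT untreated alone lay at gene edges less often than other WT untreated peaks of like score. A gene edge is here 1 kb around an annotated start site of a protein-coding gene, or around either end of the gene span for the genes without one. By that measure 909 of 3916 regions, 23.2% (21.9 to 24.6), were at an edge, against 53.6% (52.7 to 54.4) of the other WT untreated peaks. In the lowest score quartile the shares were 21.8% (20.1 to 23.5) and 35.3% (33.2 to 37.4), and in the second 24.9% (22.6 to 27.3) and 38.7% (36.9 to 40.4). In the third they were 27.5% (22.4 to 33.0) and 50.8% (49.3 to 52.4). The intervals did not overlap in any of these 3 quartiles. The mean difference over the 4 quartiles was -26.4 percentage points, but it rests on the highest quartile with its 5 regions, and over the 3 lowest it was -16.9. The lowest 7 score deciles each gave a negative difference, from -9.63 to -24.8 points.

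Within a score quartile, the edge share was higher with each further library that had the region. Among peaks of the lowest quartile it was 21.8% (20.1 to 23.5) with no other library, 30.6% (27.9 to 33.3) with 1, 37.6% (33.7 to 41.7) with 2 and 50.2% (44.1 to 56.3) with all 3. In the second quartile the shares were 24.9%, 32.2%, 41.1% and 48.3%, and in the third 27.5%, 39.3%, 48.9% and 56.8%. Median scores within the lowest quartile differed little along these steps, from 58.0 to 60.3, while median widths went from 310 bp to 352 bp. Scores differed more in the second quartile, from 79.5 to 86.05, and in the third, from 113 to 135. Median widths there went from 365 bp to 421 bp and from 428 bp to 510 bp. The steps in those quartiles were thus not at like score. Width moved with the edge share, so the shares were also taken by width. Among lowest-quartile peaks of 300 bp or more but under 400 bp, 21.1% (18.7 to 23.5) of the regions found alone and 35.9% (33.0 to 38.9) of the others were at an edge. Below 300 bp the shares were 19.5% (16.9 to 22.3) and 27.1% (23.3 to 31.1).

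**Figure D3:**
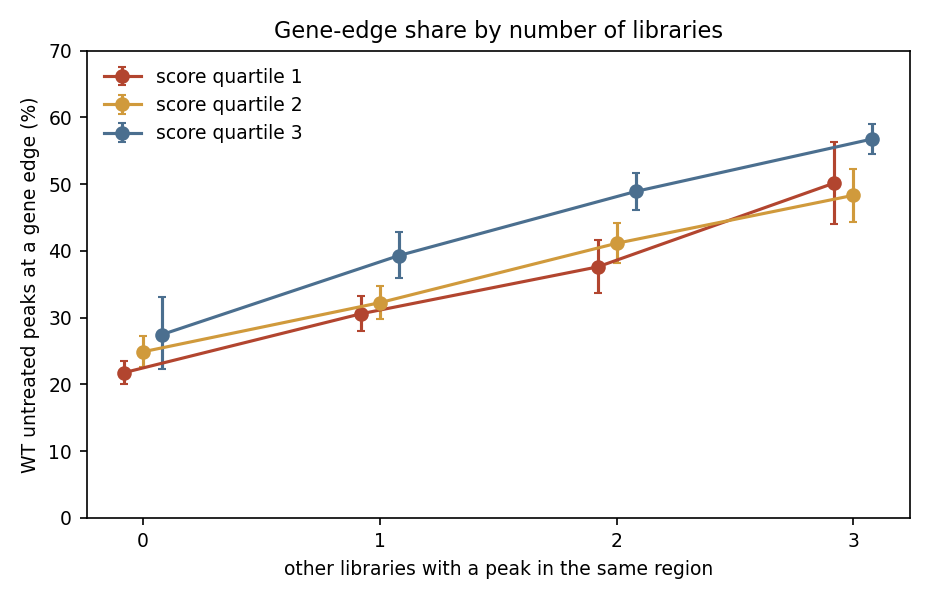
Percentage of WT untreated peaks at a gene edge (y axis) by the number of other libraries with a peak in the same region (x axis), for the 3 lowest score quartiles; bars are exact 95% intervals for counting error. The points at 0 are the regions found in WT untreated alone (21.8%, 24.9% and 27.5%), the lowest of each line.

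Away from gene edges, 1568 regions lay inside a protein-coding gene, 441 (11.3%) within 10 kb of one and 998 (25.5%) farther away. In the lowest score quartile 39.98% of the regions and 33.7% of the other WT untreated peaks lay inside a gene, and 26.2% and 20.9% lay beyond 10 kb. The nearest gene had an edge peak in all 4 libraries for 30.3% (28.6 to 31.9) of the 3007 non-edge regions and for 29.6% (28.5 to 30.7) of the 6230 other non-edge peaks. It had none in any library for 41.6% (39.8 to 43.4) and 43.6% (42.4 to 44.9). The difference in these shares was not tested.

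Edge shares of the same order were found in the other libraries for the regions found in each of them alone. The shares were 25.3% (23.2 to 27.6) of 1540 regions in KO untreated alone, 20.3% (17.2 to 23.8) of 585 in WT IL-4 alone and 18.8% (16.0 to 21.9) of 691 in KO IL-4 alone. WT untreated alone, at 23.2%, had an interval (21.9 to 24.6) that overlapped all 3 of these, that of KO IL-4 only at its end. The WT untreated set was the most numerous, at 22.6% of its list against 11.2%, 5.89% and 6.62% for KO untreated, WT IL-4 and KO IL-4. Its median width of 330 bp was below the 390 bp, 451 bp and 388 bp of the others in that order, as was the median width of its whole list (438 bp against 530, 587 and 514 bp).

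Promoter sequence under the regions was less rich in CpG than under other WT untreated peaks. Windows counted where at least 150 of their 300 bases lay under a peak, 1 window per gene, which gave 558 genes under the regions and 5908 under other peaks. The median was 20 CpG (quartiles 12.3 to 29) and 23 CpG (17 to 30), and over all 17491 genes with a window it was 14. At least 10 CpG were present in 82.6% (79.2 to 85.7) of the windows under the regions and in 93.9% (93.2 to 94.5) under the others. In the lowest score quartile the 2 shares were 79.4% (74.1 to 84.1) and 86.9% (83.3 to 89.9), in the second 85.8% (80.6 to 90.0) and 89.0% (86.7 to 91.0). The intervals overlapped in both quartiles.

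Of the motifs searched on both strands, the CCAAT box, the site of NF-Y, differed most in share: 31.9% (28.0 to 35.9) of windows under the regions, 46.7% (45.4 to 48.0) under other peaks and 39.1% of all windows. It was singled out after its values were seen. In the lowest score quartile the shares were 29.4% (24.1 to 35.2) and 28.8% (24.6 to 33.3), and in the second 34.9% and 36.5%. In the third they were 33.3% (21.1 to 47.5) and 41.3% (39.0 to 43.7). The intervals overlapped in all 3 quartiles. The GC box (GGGCGG) was in 64.3% (60.2 to 68.3) and 72.8% (71.7 to 74.0) of windows, and in 47.0% of all. In the lowest quartile it was in 66.5% and 65.2%, in the second in 62.5% and 65.8%, and in the third in 61.1% and 70.2%. The AP-1 motif (TGANTCA) was in 6.09% (4.26 to 8.41) and 3.89% (3.41 to 4.42), and in 6.998% of all windows. The PU.1-type letters GAGGAAGT were in 4.48% (2.92 to 6.54) and 3.22% (2.78 to 3.70), with 3.28% of all. Their quartile shares were singled out after the values of all 15 motifs were seen. In the lowest score quartile these letters were in 7.35% (4.55 to 11.1) and 2.07% (0.953 to 3.90), where the intervals did not overlap. In the second the order was the other way, 2.16% (0.703 to 4.96) and 3.83% (2.65 to 5.33), and in the third 0 of 54 windows under the regions had them, against 3.34% under other peaks. For C/EBP (TTGCNNAA) the shares were 9.50% (7.196 to 12.2), 7.41% (6.76 to 8.11) and 9.98%. For the STAT6-type motif they were 3.41% (2.06 to 5.27), 5.06% (4.52 to 5.65) and 6.34%.

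The shares for the remaining motifs were, under the regions, under other peaks and over all windows, 8.60%, 11.1% and 5.36% for the ETS core CCGGAAGT, and 2.51%, 2.91% and 1.36% for the NRF1 motif. They were 3.41%, 4.28% and 2.32% for the CRE TGACGTCA and 10.8%, 15.1% and 8.68% for its core TGACGT, whose matches include those of the full motif. The E-box CACGTG gave 13.3%, 11.3% and 7.91%, and the interferon-type (ISRE-like) motif gave 4.30%, 2.64% and 3.40%. The YY1 motif gave 2.33%, 2.12% and 1.01%, the TATA letters TATAAA gave 6.63%, 4.82% and 13.1%, and the RUNX letters TGTGGT gave 13.8%, 11.02% and 15.1%. By score quartile the intervals of the NRF1 motif did not overlap in the third. There it was in 6 of 54 windows under the regions, 11.1% (4.19 to 22.6), and in 2.98% (2.22 to 3.91) under other peaks. In the lowest quartile it was in 1.84% and 1.61%, and in the second in 1.29% and 2.32%. This too was singled out after its values were seen.

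The highest-scoring region (score 181, chromosome 17, 83312374 to 83312940) lay 37989 bp from Eml4, a microtubule-binding protein gene. Of all WT untreated scores, 77.9% were no higher. The next lay 15455 bp from Tpt1 (177), 27009 bp from Hlf (171), a bZIP transcription factor gene, at the edge of 1700025G04Rik (170) and inside Klf13 (169). No peak of another library lay within 10 kb of 17 of the 20 highest regions. Most regions of any score also lacked one, since 36.9% (35.4 to 38.4) of all the regions had such a peak within 10 kb. Whether the highest regions differed from the rest in this was not tested. Of these 20 regions 8 lay farther than 10 kb from a protein-coding gene, 6 at an edge, 3 inside a gene and 3 within 10 kb.

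Among these 20, the region nearest Fcgr3 (151, chromosome 1, 171044382 to 171044912) lay 6256 bp from this low-affinity IgG receptor gene. That at Ffar2 (161, chromosome 7, 30812058 to 30812789) lay 5241 bp from the gene, which encodes a receptor for short-chain fatty acids. One (150, chromosome 3, 142590489 to 142590960) lay 3855 bp from Gbp2b, an interferon-inducible GTPase gene, and one (150.4) 127331 bp from Rgs18, a regulator of G protein signalling. Others were at the edge of Cmpk1 (161), the UMP-CMP kinase gene, at the edge of Snx12 (149), a sorting nexin, inside Osbpl8 (152), which encodes an oxysterol-binding protein relative, and inside Slc2a9 (148), a urate transporter gene. The remaining ones lay at the edges of Tmem185a (157) and C87436 (149) and 42331 bp from Gm30733 (164). The last 3 lay 48437 bp from Fstl5 (154), 12502 bp from Casd1 (154) and 490149 bp from Adgrl2 (146).

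At 968 protein-coding genes, 4.42% of 21883, a region reached the gene's edge. For 778 of the 968, or 80.4% (77.7 to 82.8), no other library had a peak at any edge of the gene. The selection largely sets this share, which was 9.09% (781 of 8593) over all genes with a WT untreated edge peak. The remaining genes had one elsewhere at an edge: 155 in KO untreated, 117 in KO IL-4 and 101 in WT IL-4, with 66 in all 3. Among such genes named below, Cdk4, Aldh18a1 and Sgms1 had an edge peak in every library, and Atp5d had one in WT IL-4 and KO untreated. Bhlhe41 and Tuba1b had one in KO untreated, and Ly96 in KO IL-4. The 5 highest-scoring edge regions were those of 1700025G04Rik, Cmpk1, Tmem185a, Cebpb and C87436, and none of the 5 genes had an edge peak in another library.

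The lineage transcription factors of macrophages supplied several regions. Cebpb encodes C/EBPβ, a factor of myeloid differentiation and of the Arg1 enhancer in macrophages. Its edge region (chromosome 2, 167688489 to 167689291) scored 151, and no other library had a peak at the Cebpb locus, the span with 10 kb on each side. Irf8, which drives monocyte development, had 1 locus peak in WT untreated, at its edge (73.8, chromosome 8, 120736068 to 120736465), and 0 in the other libraries. At Spi1, the PU.1 gene, the region lay at the edge with a score of 53.2 (chromosome 2, 91082772 to 91083252). A KO untreated peak of 88.7 lay 907 bp further into Spi1, so the gene was not without peaks in KO. At Csf1r, the M-CSF receptor gene, the region was a weak one (58.3), while another Csf1r peak was present in all 4 libraries with scores of 101, 139, 158 and 87.9 in WT untreated, WT IL-4, KO untreated and KO IL-4.

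Il4ra, which encodes the alpha chain of the IL-4 receptor, had 3 locus peaks in WT untreated, of which 2 were found in that library alone (70.1 and 54.1), and the third (106) had a KO untreated counterpart. Mrc1, the mannose receptor gene, had 2 WT untreated peaks, of which 1 (54.9) was found there alone. Arg1 and Stat6 had none, since each of their WT untreated peaks overlapped a peak of another library. The scores of these 3 regions at Il4ra and Mrc1 lay below the list's median of 101.1, as did 92.6% of all the regions (at or below it).

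Over all protein-coding genes 3321 of 21883, or 15.2%, had a region at the locus, and a locus could hold several. Only 56.0% of genes had any WT untreated locus peak, and of those 27.1% had a region found in WT untreated alone. For 2242 of the 3321 genes another WT untreated peak with a counterpart also lay at the locus. The count moved with gene length: the median span was 15714 bp for genes with no region, 25894 bp with 1, 59751 bp with 2 and 154957 bp with 3 or more. Thus 94 genes, 0.430% of all, had 3 or more.

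The 8 genes named here for the most regions had spans of 64666 to 792047 bp. Rabgap1l, which encodes a Rab GTPase-activating protein, had 6 regions (52.2 to 91.4) among 9 WT untreated peaks over a span of 574303 bp. All 6 lay between 160233966 and 160301474 on chromosome 1, while the peaks with counterparts stood outside that stretch. Sgms1, the sphingomyelin synthase gene, had 6 of 12 (51.5 to 104). Inpp4b, an inositol polyphosphate phosphatase gene, had 4 of 6 (74.6 to 136), Mitf, a bHLH factor of lysosomal and melanocyte genes, 4 of 6 (61.4 to 102), and Arap1, an Arf GTPase-activating protein gene, 4 of 5 (55.7 to 113). Fat3 had 4 of 7 (70.4 to 100.1), Arhgap26 4 of 6 (50.3 to 115) and Trps1 4 of 7 (55.7 to 139). In all, 18 genes had 4 regions, and those named here were the ones with the highest summed region scores.

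**Figure D4:**
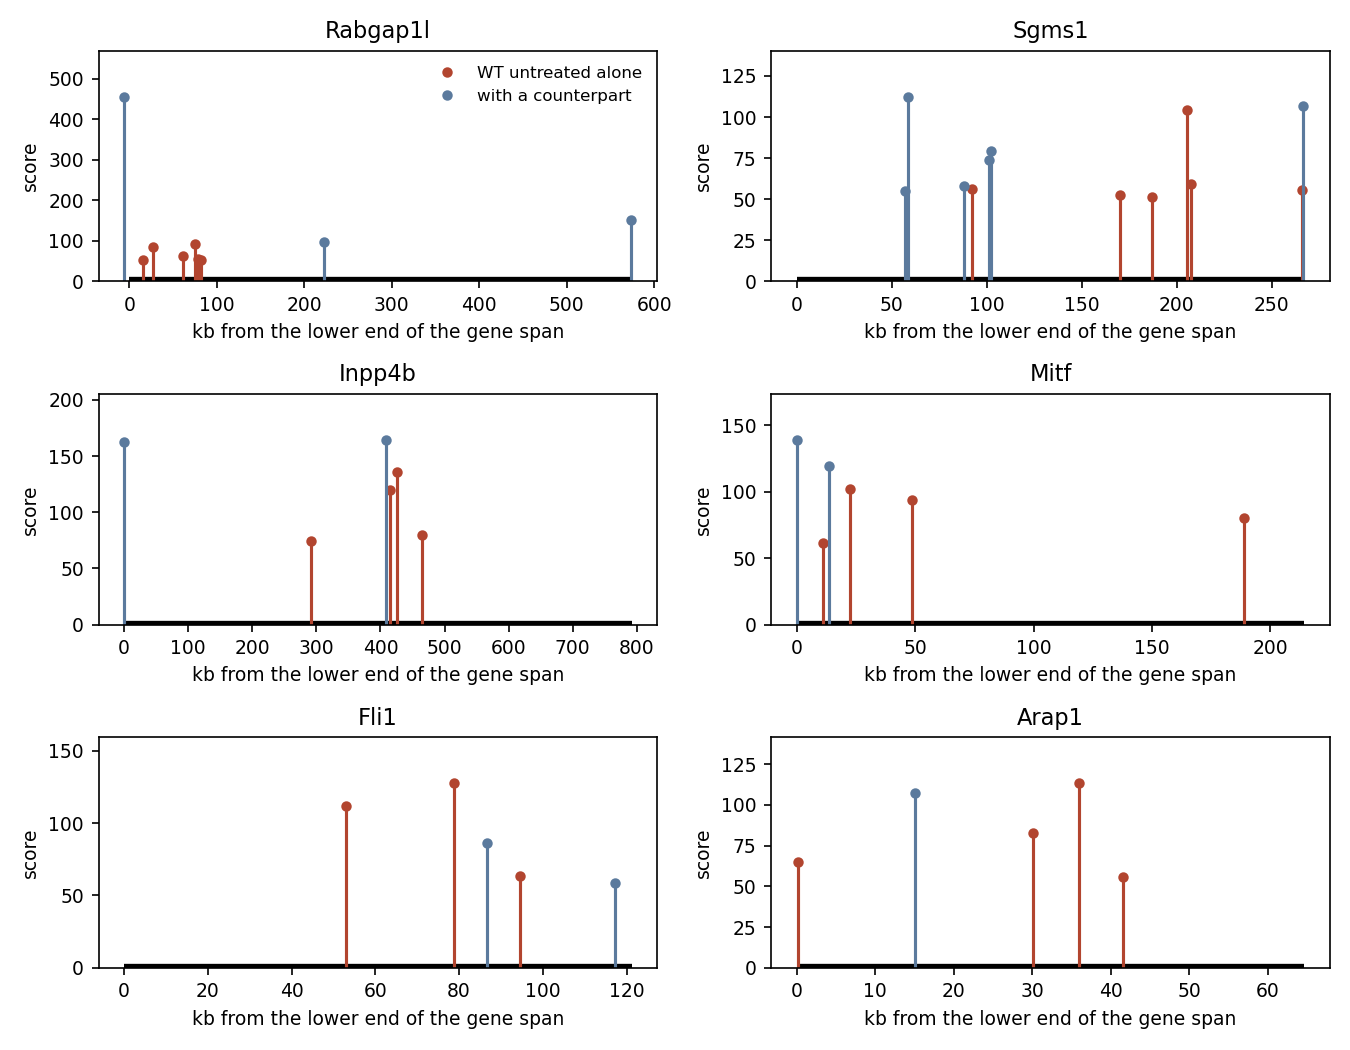
WT untreated peaks at 6 loci, with the score (y axis) against the distance in kb from the lower end of the gene span (x axis; black bar, gene span); red, peaks found in WT untreated alone; blue, peaks with a counterpart in another library. At Rabgap1l the 6 red peaks group in 1 part of the span, and at Mitf (4 red) and Inpp4b (4 red) they stand beside blue ones.

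Gene lists were read in 2 ways: how many genes had a region at the locus, against 15.2% over all genes, and which share of their lower-score WT untreated locus peaks were found in that library alone. Lower-score peaks are those of the 2 lowest score quartiles, of which 41.8% over the whole list were found alone. Of the 23 lists with 10 or more such peaks, the lowest share was 17.9% (interferon response) and the highest 6 of 10 peaks (MHC class II). The 95% interval included 41.8% for 21 of them and lay below it for 2, interferon response and glycolysis. No list's interval lay above it, and no test was made. Of the 692 entries in the 22 pathway and macrophage lists, 578 had a WT untreated locus peak, a larger share than the 56.0% of all genes, and gene counts move with that.

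**Figure D5:**
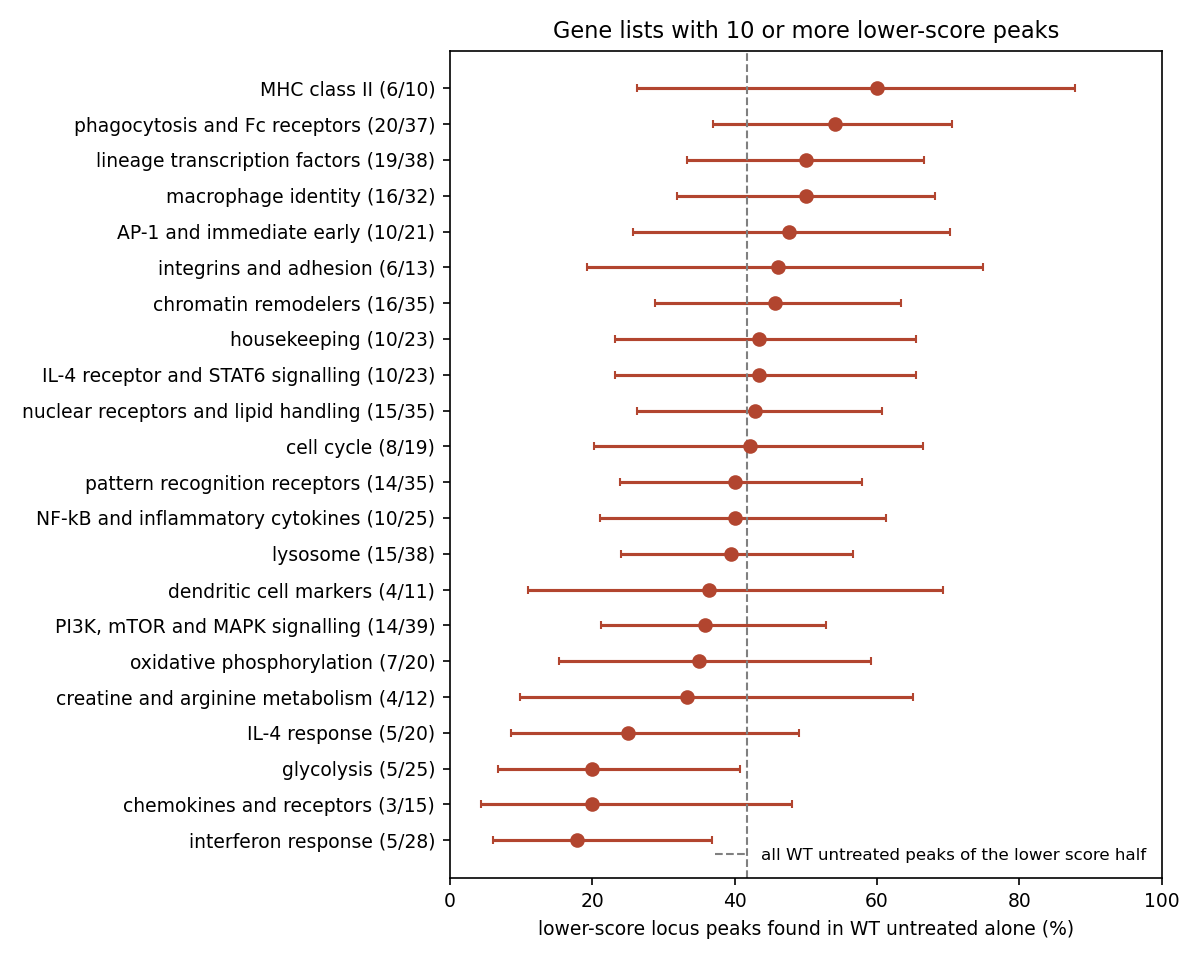
Percentage of lower-score WT untreated locus peaks found in that library alone (x axis) for 22 of the 23 gene lists with 10 or more such peaks (y axis, with counts; the other is not reported here); bars are exact 95% intervals for counting error, and the dashed line is the 41.8% of all lower-score peaks. Interferon response (5 of 28) and glycolysis (5 of 25) are the lists whose interval lies below the line.

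In the macrophage identity list 15 of 30 genes had a region, against 15.2% of all genes, and 27 of the 30 had a WT untreated locus peak, against 56.0%. Of its 32 lower-score peaks 50.0% (31.9 to 68.1) were found in WT untreated alone, an interval that includes the 41.8% of all lower-score peaks. Besides Fcgr3, the highest were at the edge of C1qa (97.8), a complement subunit gene, in a peak that also falls in the C1qc locus, and 8997 bp from the edge of Msr1 (94.2), a scavenger receptor gene. The lineage factor list had 14 of 26, including Fli1, an ETS factor gene with 3 regions at the locus (63.6 to 127), and the edge of Bhlhe41 (94.0). The phagocytosis and Fc receptor list had 14 of 33, including Syk (106), the kinase downstream of Fc receptors, and Pirb (100.03), an inhibitory immunoglobulin-like receptor gene. In the lineage factor and phagocytosis lists 25 of 26 and 26 of 33 genes had a WT untreated locus peak. Their lower-score shares were 50.0% (33.4 to 66.6) and 54.1% (36.9 to 70.5), and both intervals include 41.8%.

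Signal sensing genes had regions at varied sites. Their gene counts stand against 15.2% of all genes, and edge counts against 4.42%. The intervals of their lower-score shares included the 41.8% of all lower-score peaks. A WT untreated locus peak was present for 24 of 31 pattern recognition receptors, against 56.0% of all genes. The other lists, in order, had 33 of 38, 26 of 31, 38 of 40, 17 of 30 and 21 of 30. Pattern recognition receptors had 14 of 31, including one 6670 bp from the edge of Tlr13 (132), an endosomal sensor of bacterial RNA, the edge of Nlrc4 (112), Irak3 (85.1), an inhibitor of Toll-like receptor signalling, and the edge of Ly96 (82.9), the MD-2 gene. The NF-kB and inflammatory list had 9 of 38, with Rela (91.6), Bcl3 (78.4), Nfkb1 (71.7) and Cd86 (69.8) the highest. The AP-1 and immediate early list had 10 of 31, with Mafg at its edge (87.3), the Fosl1 locus (89.9, at the edge of Ccdc85b), Nr4a2 (82.4) and Dusp6 (77.6). The PI3K, mTOR and MAPK list had 11 of 40 and 0 at an edge, with Pik3ca (99.6), Map4k4 (77.9), Map3k1 (76.5) and Mapk8 (70.3). Chemokines and their receptors had 3 of 30, at the Cxcl16 locus (89.3, nearest to Zmynd15), beside Ackr3 (73.9) and the edge of Cxcl2 (52.5). Integrins and adhesion genes had 6 of 30, with Itga6 (73.7), Itga2 (68.05), Itgam (64.5) and the edge of Icam1 (57.5).

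Gene counts for lists of cytokine response and of creatine metabolism stand against 15.2% of all genes, and edge counts against 4.42%. In the IL-4 response list 20 of 34 genes had a WT untreated locus peak, and in IL-4 receptor and STAT6 signalling 21 of 22. In interferon response 29 of 37 did and in the creatine and arginine list 16 of 24, against 56.0% of all genes. The IL-4 response list had 4 of 34 genes and 0 at an edge: Klf4 (85.8), Pparg (64.2), Mrc1 and Alox15 (53.8). Of its 20 lower-score peaks 5 were found alone, an interval of 8.66% to 49.1%. IL-4 receptor and STAT6 signalling had 10 of 22, with Jak1 (93.2), Ptpn6 (92.0), Jak2 (75.2) and Irs2 (74.7) the highest. Of the 23 lower-score peaks of that list 43.5% (23.2 to 65.5) were found alone, an interval that includes the 41.8% of all lower-score peaks. The interferon response list had 6 of 37 and 0 at an edge, with a region 14705 bp from the edge of Cgas (122), the cytosolic DNA sensor gene, and others at Ifnar2 (87.05), Irf2 (81.0) and the Oasl1 locus (74.0), the last at the edge of the neighbouring 2210016L21Rik. Its lower-score share was 17.9% (6.06 to 36.9). The creatine and arginine list had 4 of 24: a region in the Gamt locus at the edge of the neighbouring Dazap1 (80.6), the edge of Aldh18a1 (71.0), the Agmat locus (60.9) and Sms (54.7). Gamt is the methyltransferase of creatine synthesis. Of the 12 lower-score peaks of the creatine and arginine list 4 were found alone, an interval of 9.92% to 65.1%.

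Among lists of metabolism and antigen presentation, glycolysis had the lowest share of lower-score peaks found alone. For the other lists named here the interval of that share included the 41.8% of all lower-score peaks. Gene counts stand against 15.2% of all genes, and edge counts against 4.42%. Over all genes, 3321 had a region at the locus and 968 had one at an edge. Nuclear receptors and lipid handling had 16 of 39, with Plin2 (136), the lipid droplet protein gene, at 6533 bp from its edge, the edges of Ppard (118) and Nr1h2 (93.7), the LXR-beta gene, and Soat1 (92.9), a cholesterol esterifying enzyme gene. The lysosome list had 11 of 39, including regions at the Ctsk locus (103, nearest to Arnt), at the Hexa locus (98.7, inside Tmem202), beside Tfeb (96.2), the master regulator of lysosomal genes, and beside Atp6v0c (79.98). Oxidative phosphorylation had 8 of 27, of which 6 had the region at the edge, among them Uqcrc1 (108), Ndufa9 (75.1), Atp5d (65.6) and Ndufb8 (64.8). Glycolysis had 5 of 26 and 0 at an edge, the highest at the loci of Tpi1 (72.6), Gpi1 (64.8), Pfkfb4 (57.6) and Hif1a (55.02). Of its 25 lower-score peaks 5 were found alone, an interval of 6.83% to 40.7%. MHC class II had 5 of 18 genes, 4 at an edge. A region of 65.2 held annotated start sites of both H2-DMa and Brd2. Others were at the edge of Marchf1 (63.3) and that of H2-DMb1 (57.2), a peak that also falls in the H2-DMb2 locus.

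The last gene counts also stand against 15.2% of all genes, and the intervals of their lower-score shares included 41.8%. Chromatin remodelers had 12 of 42, with the Hdac3 locus (104), the edge of Ep300 (101), the histone acetyltransferase gene, Arid1b (97.55) and the Chd4 locus (87.0). Cell cycle had 7 of 32, with Cdk4 (92.6) and Rb1 (91.4) at their edges, the Ccnb1 locus (85.2) and the Cdkn2a edge (69.2). Every other library also had a peak at the Cdk4 edge, and none had one at the Rb1 edge. Housekeeping genes had 9 of 26, with the edges of Tuba1b (77.07) and Tubb5 (74.3). The Actb region (85.7) was 1002 bp from the gene's start site, just beyond the edge limit.

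Markers of other cell types had a region for 11 of 108 entries, or 10.2%, against 15.2% of all genes. Only 37 of the 108 had a WT untreated locus peak, against 56.0% of all genes, and gene counts move with that. Of these 37 entries 11 had a region, against 27.1% of all genes with a WT untreated locus peak. Neutrophil markers had 3 of 15, at Csf3r (124.8), the Mmp8 locus (80.6) and the edge of S100a8 (60.05), and 3 of their 6 WT untreated locus peaks were found there alone, against 22.6% of all WT untreated peaks. The same count was 3 of 3 for fibroblast and stromal, 4 of 20 for dendritic cell, 2 of 11 for B cell, 1 of 8 for T cell, 1 of 6 for erythroid and megakaryocyte and 0 of 3 for neuron and hepatocyte markers. B cell markers had 2 of 13 (Ms4a1, 76.6, and the Cd79b locus, 52.1, nearest to Gh), dendritic cell markers 2 of 13 (Tcf4, 81.9, and Zbtb46, 65.7), and fibroblast and stromal markers 2 of 14 (Acta2, 122, and Pdgfrb, 56.8). T cell markers had 1 of 15 (Cd2, 55.5) and erythroid and megakaryocyte markers 1 of 13 (Pf4, 55.2). Mast cell and basophil markers and neuron and hepatocyte markers had 0 of 10 and 0 of 15.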

How the data were processed

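ATAC-seq peak lists of 4 libraries, 1 per group, were used. Peak scores were used as the authors deposited them, and no header states their scale. Per the submitters' processing notes the build was mm10 and the tools included HOMER, MACS 1.4.2 and Bowtie2 2.2.5, with neither roles nor parameters. Read depth was not stated.

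Peaks were merged at 1 bp of overlap, and regions with WT untreated peaks alone were kept. Genes were 21883 protein-coding genes of RefSeq GRCm38.p6, of which 17491 have an annotated start site in the RefSeq promoter table; either end of the span stood for the rest. A planned motif count over the regions needed a genome sequence and was replaced by promoter windows. No test was made, because no group has a second library.

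The 30 gene lists held 802 entries: 799 matched by symbol, 1 by an older symbol and 2 not. Results for 1 list and 1 named gene are not reported here. The regions and lists were chosen with earlier results of these data known. Named genes are Slc6a8, Arg1, Mrc1, Il4ra, Stat6, Spi1, Cebpb, Irf8 and Csf1r, the genes of the 20 highest, 5 highest edge and 5 widest regions, up to 4 genes per list with the highest-scoring region, and the 8 genes with most regions. Ties among the genes with most regions were broken by the sum of region scores. The boundary examples and printed promoters were chosen after values were seen.

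Alternatives were a reciprocal overlap of 50%, no other peak within 500 bp, a score of 100 or more, equal list lengths, autosomes only, loci widened to 50 kb and edges of 2.5 kb. Either end of the span as the edge of every gene, and the 3 lowest quartiles alone, were added after the data were seen. Computation was in Python 3.11.15 with SciPy 1.17.1, pandas 2.3.3, NumPy 2.4.6 and Matplotlib 3.10.9. Tested on simulated data (17339 peaks with 3889 planted regions), the overlap search for peaks without a counterpart found 3870 of them and 0 false ones.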

Additional observations from a re-analysis of the deposited data

How the results depend on the processing

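The direction of the edge difference, fewer edges among the regions found in WT untreated alone, held under every alternative run. With a score of 100 or more in every list, 2549 regions were found alone, of which 312 were among the 3916. Their edge share was 41.8%, their share in the lowest score quartile 56.2%, their median width 464 bp and their edge difference -14.5 points. With that limit on WT untreated only there were 312 regions, with 27.6%, 78.2%, 428 bp and 314 genes with one at the locus. The highest-scoring peaks of each list at equal lengths (9930 each, which leaves out WT untreated scores below 89.57) gave 900 regions, of which 556 were among the 3916, with 29.8%, 72.7%, 422 bp and 884 genes. A reciprocal overlap of 50% gave an edge share of 26.5% and a difference of -17.4 points. Edges of 2.5 kb gave 27.9%, and loci extended by 50 kb gave 6613 genes. The 3 lowest quartiles, a choice added after the data were seen, gave -16.9 points. Quartiles were retaken in each filtered list. No paired analysis was possible because each group has 1 library and no test was made. Unknown read depth limits every statement on absence.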

Other observations

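Autosomes differed little in the share of WT untreated peaks found in that library alone, from 19.1% on chromosome 16 to 24.8% on chromosome 13, with a median of 22.9%. On chromosome X it was 19.6% (15.5 to 24.3) of 336 peaks, and on chromosome Y 2 of 18 peaks.

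Start sites of long non-coding RNA genes were also near few of these regions. Of the 3007 non-edge regions, 91, or 3.03% (2.44 to 3.70), lay within 1 kb of one, against 5.33% (4.78 to 5.92) of the 6230 other non-edge WT untreated peaks. In the lowest score quartile the shares were 3.08% (2.34 to 3.99) and 4.13% (3.12 to 5.36), with overlapping intervals. Ends of microRNA genes lay within 1 kb of 6 of the 3007.

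The regions had other such regions nearby in part of the cases: 386 of 3916, or 9.86% (8.94 to 10.8), had another within 10 kb.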
